A study of Zea mays with 9 samples.

Results

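Early tunicamycin stress was examined by setting the libraries taken after 6 h in the drug against those taken at 0 h. These are 6 of the 9 libraries of the series, 3 at each of both times, chosen by their time labels, and all 38703 gene identifiers of the deposited table were used. The libraries are ATAC-seq libraries, in which a transposase inserts sequencing adapters into open DNA, so that coverage measures how accessible a stretch of chromatin is. The 6 h and 0 h groups share the maize inbred line B73 and the tissue, flash-frozen seedling root nuclei. The agent of the series is tunicamycin in DMSO, given to seedlings at 5 mg per ml. Whether that figure is the stock or the final strength is not stated. The 0 h libraries stand for no time in the drug. One label field calls the material protoplasts while the source and the extraction text name root, which is the name used below. No 6 h libraries without the drug were analysed, so the drug and the time elapsed vary together.

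Tunicamycin blocks the first step of N-linked glycosylation, the attachment of sugar chains to proteins entering the endoplasmic reticulum. Proteins that lack these chains misfold there, and the cell answers with the unfolded protein response, in which the membrane sensor IRE1 cuts the messenger of a bZIP transcription factor and thereby switches on genes for chaperones and for the disposal of misfolded proteins. The title of the series describes a process with phases, in which activities that favour survival give way to cell death when the stress persists. A comparison at 6 h asks what had already differed in chromatin at the earlier of both sampled times. The identifiers carry no gene names in the deposited table, and 0 entries of the RefSeq table used here hold them, so chaperones, sensors and cell death genes are not described below. Genes are given by identifier, and groups of genes by their id numbers and by their level of coverage.

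The 6 h libraries were shallower than the 0 h libraries. Their totals came to 31.1, 33.1 and 28.9 megabases of coverage, against 39.1, 35.0 and 38.1 megabases in the 0 h libraries, and the groups did not overlap. The mean difference was -6.36 megabases (exact two-sided permutation p = 0.1, the smallest that 3 libraries against 3 allow). Depth therefore cannot be told apart from time at the level of groups, and each column was divided by its total before any comparison. A read that lay fully in a counted window was taken to add 73 bases, inferred from an excess of values that divide evenly by 73. That unit is called a read below. The median gene held between 9.0 and 10.4 reads in a 6 h library and between 10.8 and 12.0 in a 0 h library. Between 585 and 718 genes had no coverage in a 6 h library, against 536 to 614 in a 0 h library, and 176 genes were at 0 in all 3 libraries at 6 h against 157 at 0 h. Because every value is a share of its library, a gain in some genes is matched by a loss in others, and the absolute level of accessibility was not measured. The nuclei were bulk preparations, so a different mix of cells and a change within cells cannot be told apart.

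No single gene differed at 6 h past the threshold with this test, a limma fit of log2(scaled coverage + 73) with Benjamini-Hochberg adjustment. Of 38703 genes, 0 (0%) were called at an adjusted p under 0.05, while 2450 (6.33%) had an unadjusted p under 0.05, of which 1204 (3.11%) were higher and 1246 (3.22%) lower at 6 h. The 3 libraries at 6 h lay above all 3 at 0 h in 2213 genes (5.72%) and below them in 2034 (5.26%). The median log2 change over all genes was 0.00, and the standard errors of single genes had a median of 0.32 on that scale.

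Zm00001d042506 had the lowest p of all genes and was lower at 6 h. It held 656, 76.9 and 187 bases of scaled coverage in the 6 h libraries, against 1400, 1281 and 870 bases in the 0 h libraries. All 3 values at 6 h lay below all 3 at 0 h, and replicate 1 was the highest of the 6 h values. On the log2(value + 73) scale it differed by -2.02 (SE 0.39) and missed the threshold, at a limma adjusted p of 0.0858. Without 6 h replicate 1 the log2 change of this gene was -2.65 and its limma adjusted p was 0.00023. Leaving out any other 6 h or 0 h library instead gave a limma adjusted p between 0.113 and 0.572. Zm00001d045296 came next among the lower genes, with 717, 317 and 671 bases in the 6 h libraries against 1146, 1699 and 1664 bases in the 0 h libraries. Its groups did not overlap either, and the log2 change was -1.34 (SE 0.30, limma adjusted p = 0.299).

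Among genes with more coverage at 6 h, Zm00001d016456 had the lowest p. It held 463, 616 and 707 bases in the 6 h libraries, against 65.1, 0 and 237 bases in the 0 h libraries, which amounts to a few reads at 0 h. The log2 change was 2.18 (SE 0.48, limma adjusted p = 0.299). This value rests on the pseudocount, being 4.55 with a pseudocount of 1 base and 1.07 with one of 5 reads. Zm00001d009962 was better covered, with 2389, 1890 and 2444 bases in the 6 h libraries against 1124, 1036 and 1069 bases in the 0 h libraries. Every 6 h value exceeded every 0 h value, and the log2 change was 1.00 (SE 0.23, limma adjusted p = 0.358). By limma, none of the 4 genes differed at 12 h from 0 h (adjusted p from 0.516 to 0.960). Against 6 h none did either (limma adjusted p from 0.534 to 0.956). The genes were picked on their 6 h and 0 h values, so a 12 h mean between the group means was favoured. Zm00001d009962 averaged 1317 ± 53.2 bases at 12 h and Zm00001d045296 averaged 1183 ± 311 bases, both nearer to their 0 h mean than to their 6 h mean. Zm00001d016456 averaged 486 ± 117 bases at 12 h, nearer to its 6 h mean, and Zm00001d042506 averaged 671 ± 93.5 bases (SD, n = 3 each).

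**Figure D1:**
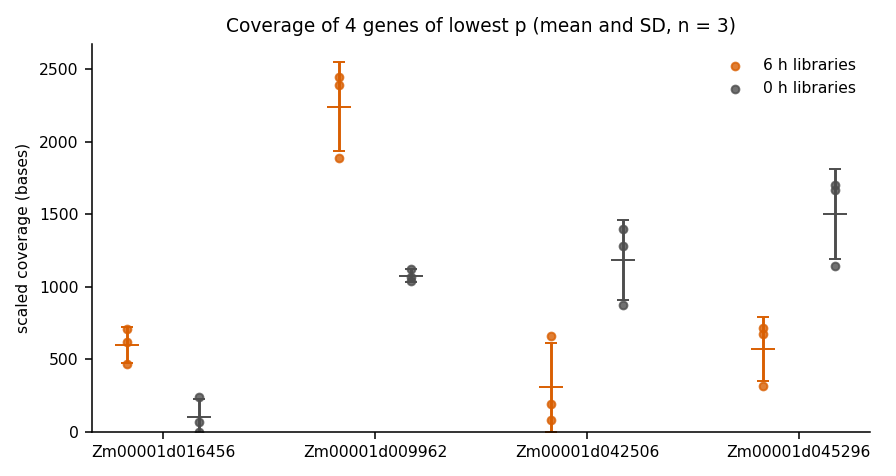
Scaled coverage in bases of 4 genes in the 3 libraries at 6 h and the 3 at 0 h, with each point a library and bars for the mean and SD. In each gene the 6 h points do not overlap the 0 h points, although none of these genes passed the limma threshold. The genes were chosen for low p in these libraries, so the separation was favoured by that choice.

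The 10 genes of lowest p in each direction were listed from genes with a mean of at least 10 reads. The 10 higher genes had log2 changes from 0.52 to 1.25 and limma adjusted p from 0.358 to 0.407. The 10 lower genes had log2 changes from -1.34 to -0.78 and limma adjusted p from 0.299 to 0.468. Of the 10 higher genes, 3 had id numbers of 458 or less, a group of 298 among all 38703 identifiers, described further below. Of the 10 lower genes, 0 did. These 3 genes averaged 3599 to 6103 bases over the 9 libraries, where the highest mean of any gene was 6103 bases. Their limma adjusted p ran from 0.358 to 0.362, and the count was not tested. None of the listed genes is annotated in the sources used here.

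Sums over many genes are far less noisy than single genes, and blocks of neighbouring id numbers shifted at 6 h. All identifiers were divided into 262 blocks of 200 consecutive id numbers, which held between 25 and 176 genes (median 153). The same limma fit on log2 of each block's summed coverage called 59 blocks (22.5%) at an adjusted p under 0.05. Of the called blocks, 30 (11.5% of all blocks) were higher and 29 (11.1%) lower at 6 h. Gains in the called blocks ran from 5.41% to 14.8% with a median of 8.16%, and losses from -7.42% to -4.03% with a median of -4.83%. The median standard error of a block's log2 change was 0.03. Libraries did not overlap in 55 blocks on the higher side (21% of all blocks) and in 38 on the lower side (14.5%). Of the 30 blocks called higher, 28 had all 3 libraries at 6 h above all 3 at 0 h. Of the 29 called lower, 24 had all 3 below. That separation describes the called blocks and is no separate evidence, since limma called them on the same libraries.

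The block with id numbers 4200 to 4399 gained most. It took 0.187%, 0.182% and 0.193% of coverage in the 6 h libraries, against 0.165%, 0.164% and 0.160% in the 0 h libraries. The groups were well apart, the change was 14.8% (log2 0.20, SE 0.04, limma adjusted p = 1.32e-05), and 78 of its 111 genes had a higher mean at 6 h. Such gene counts describe the called blocks and are no separate evidence, since the blocks were called on the sums of the same genes. In the 203 blocks not called, 51.4% of 30193 genes had a higher mean at 6 h. The block 41000 to 41199 took 0.215%, 0.205% and 0.209% in the 6 h libraries against 0.180%, 0.187% and 0.189% in the 0 h libraries. It gained 13.2% (limma adjusted p = 7.53e-05), with 75 of 107 genes higher. The block 50200 to 50399 took 0.293%, 0.286% and 0.297% in the 6 h libraries against 0.271%, 0.244% and 0.266% in the 0 h libraries. Its gain was 12.2% (limma adjusted p = 8.74e-05), with 87 of 130 genes higher.

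Losses were smaller and fell in blocks with more coverage per gene. The block 38400 to 38599 took 0.484%, 0.502% and 0.512% in the 6 h libraries, against 0.554%, 0.523% and 0.538% in the 0 h libraries. Its change was -7.29% (limma adjusted p = 0.000184), with no overlap between the groups. Of its 172 genes, 90 had a lower mean at 6 h and 81 a higher one, a nearly even split. The block 12400 to 12599 took 0.499%, 0.515% and 0.541% in the 6 h libraries against 0.561%, 0.561% and 0.540% in the 0 h libraries. It changed by -6.53% (limma adjusted p = 0.00103), replicate 3 of both times stood at almost the same value, and 95 of 169 genes had a lower mean. The block 18400 to 18599 changed by -6.34% (limma adjusted p = 0.00147), with 0.457%, 0.468% and 0.488% in the 6 h libraries against 0.496%, 0.504% and 0.508% in the 0 h libraries. Here 105 of 169 genes had a lower mean at 6 h, but the median gene of the block differed by only -0.0047 on the log2 scale (limma adjusted p = 0.976).

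The size of the called set depended on how a block was summarised. With the median gene of each block in place of the sum, limma called 3 blocks, those from id 30200, 50400 and 53400, all higher at 6 h, and 56 of the 59 blocks kept their direction. The limma adjusted p of the 6 blocks described above then ran from 0.0636 to 0.976. Leaving out 0 h replicate 2 or 6 h replicate 3 left 38 calls each, and the balance of directions moved with the settings. The calls were 25 higher and 48 lower with trimmed mean of M values scaling, 12 higher and 32 lower with genes of at least 10 reads on average, and 32 higher and 13 lower without trended and robust moderation.

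Called blocks were not scattered evenly over the id numbers. In file order the identifiers form 10 long stretches of ascending id numbers with between 2636 and 5834 genes, numbered here 1 to 10 as they follow each other in the table. Whether these stretches are chromosomes was not checked, since no coordinates of the files' annotation were available. The genes of a stretch were cut by id number into 10 position bins of equal size. Of 83 blocks in the middle (bins 4 to 6), 19 were called higher, 1 lower, and 63 had a change above 0. Of 54 blocks at the ends (bins 1 and 10), 1 was called higher, 17 lower, and 8 had a change above 0. In the 122 blocks between, 10 were called higher, 11 lower, and 64 had a change above 0. Over all 262 blocks, 30 (11.5%) were called higher, 29 (11.1%) lower, and 138 had a change above 0. The median change was 2.85% in the middle blocks and -3.005% in the end blocks. The end block called higher was 7600 to 7799, and the middle block called lower was 51400 to 51599, both picked out after their values were seen.

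Where both blocks of an adjacent pair were called, they mostly shared a direction. Of 251 pairs of adjacent blocks, 19 had both members called in the same direction and 1 had members called in opposite directions. In all remaining pairs a member was not called. Over all blocks 11.5% were called higher and 11.1% lower, and the count of pairs was not tested. In stretch 7 the 4 blocks from id 19200 to 19999, with 518 genes, each gained between 6.69% and 11.6%. Together they took 1.01%, 1.02% and 1.04% of coverage in the 6 h libraries, against 0.929%, 0.951% and 0.939% in the 0 h libraries. In stretch 5 the 4 blocks from id 17800 to 18599, with 648 genes, each changed by -6.34% to -4.05%. These took 1.97%, 1.96% and 1.97% in the 6 h libraries, against 2.06%, 2.09% and 2.08% in the 0 h libraries. The 6 h and 0 h libraries did not overlap in either sum. Both sums were taken over blocks already called on these libraries, so their separation was favoured by that choice.

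**Figure D2:**
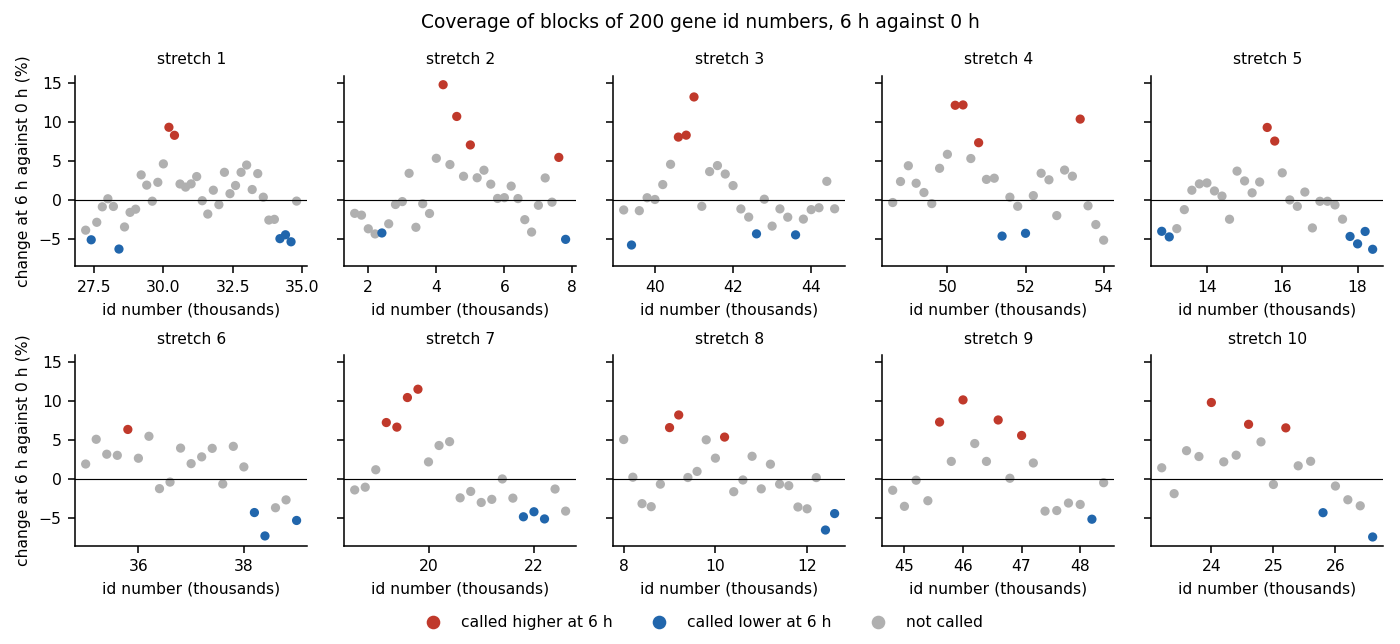
Change in summed coverage at 6 h against 0 h, in percent, of each block of 200 id numbers along the 10 long stretches, with blocks called higher in red, called lower in blue and not called in grey. Most red points lie in the interior of a stretch and most blue points near its ends.

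Each position bin was also summed over all stretches. These sums hold the same genes and libraries as the blocks, and the bins were chosen after seeing the data. They describe the pattern of the blocks in another form and are no separate evidence. Bin 5 held 8.67%, 8.59% and 8.67% of coverage in the 6 h libraries, against 8.31%, 8.41% and 8.34% in the 0 h libraries. Bin 10 held 11.05%, 11.04% and 11.07% in the 6 h libraries, against 11.45%, 11.39% and 11.37% in the 0 h libraries. Neither bin had overlapping groups, and the differences were 0.286 and -0.349 percentage points (exact permutation p = 0.1 in both cases, adjusted 0.11). Bins 3 to 6 were each higher at 6 h without overlap, and bins 1, 2, 8, 9 and 10 each lower without overlap. In bin 7 the groups overlapped.

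**Figure D3:**
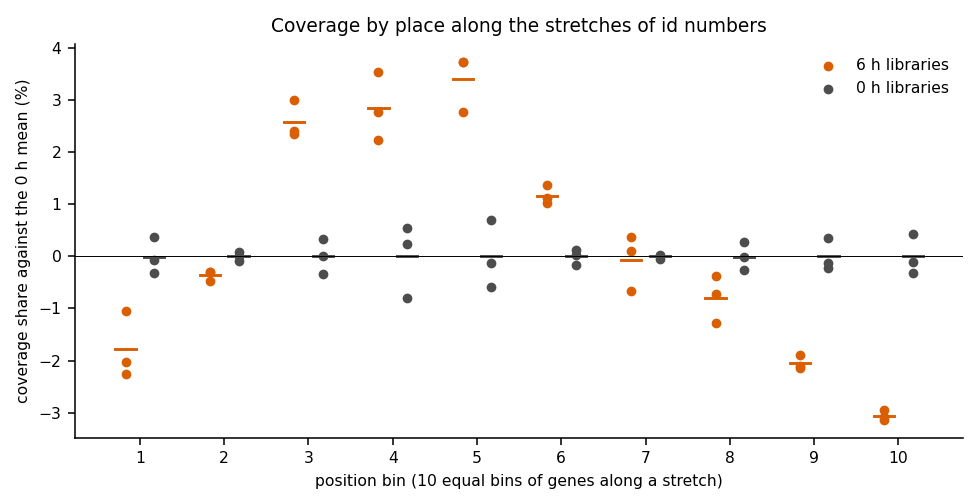
Share of coverage in each of 10 position bins of genes along the stretches of id numbers, in percent above or below the 0 h mean, with each point a library (6 h left, 0 h right) and bars for means. The 6 h libraries lie above the 0 h libraries in bins 3 to 6 and below them in bins 1, 2, 8, 9 and 10.

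Every long stretch showed the same direction, though the stretches share their libraries and the middle and ends were chosen after seeing the data. The middle bins 4 to 6 of all stretches took 27.04%, 26.92% and 26.92% of the stretches' coverage in the 6 h libraries, against 26.29%, 26.28% and 26.35% in the 0 h libraries. The end bins took 21.72%, 21.69% and 21.84% in the 6 h libraries against 22.37%, 22.24% and 22.24% in the 0 h libraries. The mean share of the middle was higher at 6 h in 10 of 10 stretches, by 0.374 to 1.12 percentage points, and without overlap in 8. The mean share of the ends was lower at 6 h in 10 of 10 stretches, by -0.851 to -0.242 points, and without overlap in 8. Stretch 9, with id numbers 44717 to 48577, had the largest gain in its middle, at 27.77%, 27.39% and 27.40% of its coverage in the 6 h libraries against 26.09%, 26.76% and 26.35% in the 0 h libraries. Each of these 20 comparisons had an exact permutation p of 0.1 or 0.2, adjusted 0.125 or 0.2, since 3 libraries against 3 cannot give less than 0.1.

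Stretch 4 held 9.95%, 9.92% and 9.96% of coverage in the 6 h libraries against 9.87%, 9.77% and 9.72% in the 0 h libraries. Stretch 1 held 15.54%, 15.56% and 15.53% in the 6 h libraries against 15.58%, 15.59% and 15.62% in the 0 h libraries. In these the groups did not overlap, while in the other 8 long stretches they did, and the lowest adjusted p over 11 groups was 0.367 (exact permutation).

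The shift also followed the level of coverage. Genes were ranked by their mean in the 12 h libraries, which take no part in the comparison of 6 h with 0 h, and cut into 10 level bins of equal size. The lowest bin held 2.12%, 2.29% and 2.27% of coverage in the 6 h libraries, against 2.07%, 2.00% and 1.98% in the 0 h libraries, a mean 10.5% higher. With genes ranked on all 9 libraries instead, the lowest bin was 8.57% higher at 6 h, and its groups overlapped (p = 0.2 by exact permutation, adjusted p = 0.222). The highest bin held 21.85%, 21.39% and 21.56% in the 6 h libraries, against 22.41%, 22.65% and 22.92% in the 0 h libraries, a mean changed by -4.69%. Level bins 1 to 6 were each higher at 6 h without overlap, and bins 9 and 10 lower without overlap (exact permutation p = 0.1 and adjusted p = 0.125 in all 8). At single genes the same order was seen when 5 level classes of equal size were formed: in the lowest class 6.87% of 7741 genes had all 6 h libraries above all 0 h libraries and 3.41% all below, against 3.89% above and 8.55% below in the highest class. The corresponding shares over all genes were 5.72% and 5.26%.

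**Figure D4:**
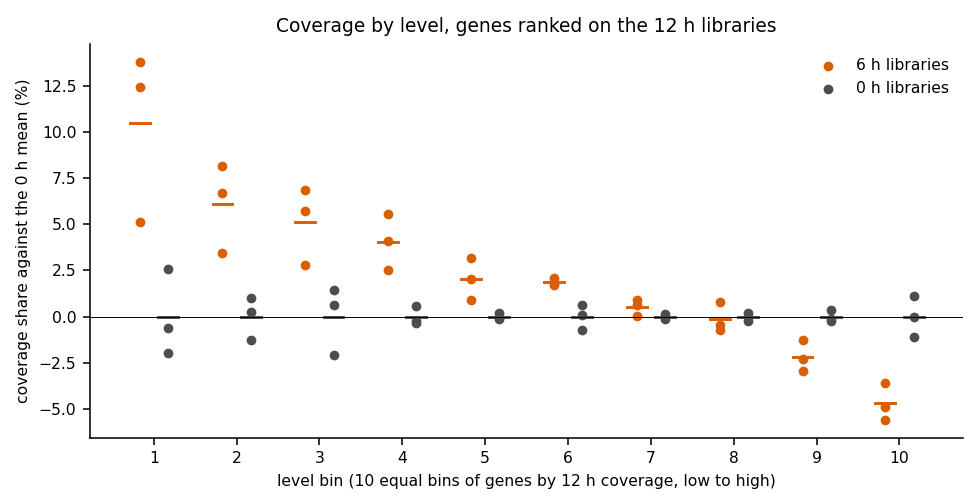
Share of coverage in 10 level bins of genes ranked by their 12 h coverage, in percent above or below the 0 h mean, with each point a library (6 h left, 0 h right) and bars for means. Low bins are higher and the highest bins lower at 6 h, and the lowest bin is the most spread.

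Level and place along the stretches went together. Genes of the middle bins had a median scaled coverage of 706 bases at 12 h, against 897 bases for the end bins and 804 over all genes. Across the 262 blocks, the mean coverage per gene at 12 h and the log2 change at 6 h had a Pearson r of -0.78 and a Spearman rho of -0.78, given as a description because blocks share their libraries and neighbours are not independent. Place was then compared within the 5 level classes. A class still spans a range of levels, so level was narrowed and not made equal between middle and ends. The top level bin of genes ranked on all 9 libraries held 6.43% of the middle genes and 13.6% of the end genes. These comparisons therefore do not fully separate place from level. The share of the middle was higher at 6 h in all 5 classes, by 0.292 to 0.692 percentage points, and without overlap in 4. The share of the ends was lower in all 5, by -0.615 to -0.335 points, and without overlap in 3. In the highest class the middle held 21.50%, 21.30% and 21.25% in the 6 h libraries, against 20.90%, 20.91% and 20.99% in the 0 h libraries. The exact permutation p was 0.1 or 0.2 in each of these 10 comparisons, adjusted 0.143 or 0.2.

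**Figure D5:**
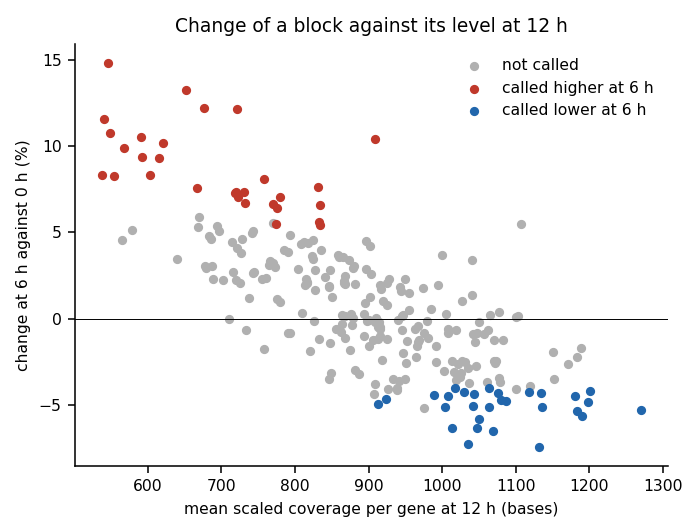
Change of each block's coverage at 6 h against 0 h, in percent, over the mean scaled coverage per gene of the block in the 12 h libraries, in bases. Blocks called higher hold less coverage per gene (median 719 bases) than blocks called lower (median 1064 bases).

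Identifiers numbered 1 to 458 lie outside the long stretches and number 298. They took 0.721%, 0.729% and 0.708% of coverage in the 6 h libraries, against 0.692%, 0.683% and 0.683% in the 0 h libraries. Every 6 h library was above every 0 h library, and the mean was 4.84% higher. The exact permutation p was 0.1, the smallest possible, adjusted 0.11 with the position bins and 0.367 with the stretches. The 3 blocks that hold these identifiers were not called (limma adjusted p from 0.103 to 0.154). In the block 200 to 399 the groups overlapped, while in the blocks 0 to 199 and 400 to 599 all 6 h libraries lay above. Of these 298 genes, 28 (9.40%) had all 6 h libraries above all 0 h libraries and 8 (2.68%) all below, where the shares over all genes were 5.72% above and 5.26% below. Without the 5 genes of highest coverage, the group held 0.663%, 0.660% and 0.644% in the 6 h libraries against 0.637%, 0.635% and 0.632% in the 0 h libraries, still without overlap.

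Depth was lower in all 6 h libraries and its part in these shifts was not tested. The libraries of nearest depth were 6 h replicate 2, at 33.1 megabases, and 0 h replicate 2, at 35.0 megabases. In that pair the middle of the stretches held 26.92% at 6 h against 26.28% at 0 h, and the highest bin of genes by 12 h level held 21.39% at 6 h against 22.65% at 0 h. Among the 0 h libraries, whose totals ran from 35.0 to 39.1 megabases, the share of the middle ran from 26.28% to 26.35% and that of the highest bin from 22.41% to 22.92%. Batches and dates are not labelled, so any that went with the sampling times cannot be told apart from those times.

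Shifts by block and by place were smaller at 12 h, while the difference in the highest level bin was about as large. Blocks were selected on their 6 h and 0 h values, and both comparisons use the same 0 h libraries, so a deviation of those libraries enters both. In the 30 blocks called higher at 6 h the median change at 12 h was 3.83%, and in the 29 called lower it came to -2.46%. The 12 h libraries set against 0 h gave 16 blocks called by limma (6.11%), with 10 higher (3.82%) and 6 lower (2.29%). Between 12 h and 6 h, a comparison without the 0 h libraries, limma called 16 of 262 blocks (6.11%), 9 of which were among the 59 called at 6 h, a comparison that shares the 6 h libraries with those calls. The middle of the stretches held 26.74%, 26.60% and 26.54% in the 12 h libraries, below all 6 h libraries and above all 0 h libraries (exact permutation p = 0.1 against either, the smallest possible). With genes ranked on all 9 libraries, the highest level bin held 23.35% ± 0.269 of coverage at 0 h, 22.34% ± 0.237 at 6 h and 22.41% ± 0.0274 at 12 h (SD, n = 3 each). In that bin the 12 h and 6 h libraries overlapped, with a difference of 0.0717 percentage points (exact permutation p = 0.7). The totals of the 12 h libraries, 35.8 to 36.8 megabases, lay within the range of the 0 h libraries.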

How the data were processed

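The authors deposited one table of whole-number coverage signal, with 38703 gene identifiers and 9 libraries. Cutadapt 1.11, Bowtie2 2.2.6, MACS2 and DESeq2 are named, per the submitters' processing notes, with no role or order. The genome build, the counted window, any shift for the transposase and duplicate removal remain not given in the sources used here, and a wide window or duplicates would change the values. Values were read as coverage because 18.8% of the values above 0 divide evenly by 73, against 1.37% for an even spread.

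Each column was divided by its total and rescaled to the mean total of 34.9 megabases. limma 3.58.1 in R 4.3.3, with trended and robust moderation, was fitted to all 9 libraries on log2(value + 73) for genes and on log2 of sums for blocks of 200 id numbers with at least 20 genes. P-values were two-sided with Benjamini-Hochberg adjustment over all features and a threshold of 0.05. The pseudocount distorts changes of low genes. Shares were compared by exact permutation over libraries. Named genes were the 10 of lowest p in each direction with a mean of at least 10 reads, the 3 of lowest p in each direction over all genes, and the 2 of largest difference in each of the 3 blocks of lowest p per direction; since none is annotated, 4 are printed by identifier and the others summarised. Gene lists, chromosomes, promoter GC and motifs had been planned and were not run, as no identifier matched an annotation. The stretches, their bins and their middle and ends, and the ranking on 12 h libraries, were chosen after seeing the data, and the members and measures were chosen with earlier results of these data known. The series calls the libraries biological replicates, and nothing says how separately they were prepared, so p-values measure only how these libraries vary, perhaps for technical reasons. Fits were tested on simulated data whose libraries varied only by counting noise and depth, apart from the changes put in. Real libraries can vary more, which that simulation did not cover. 0 columns belonged to no sample.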

Additional observations from a re-analysis of the deposited data

Results flagged for a closer look

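In 2 of the blocks named above, the change at 12 h differed from that at 6 h by a direct limma test of 12 h against 6 h, adjusted over 262 blocks. The block 4200 to 4399 held 0.170%, 0.180% and 0.171% of coverage at 12 h, against 0.187%, 0.182% and 0.193% at 6 h, a log2 difference of -0.109 (limma adjusted p = 0.0444). The block 50200 to 50399 held 0.269%, 0.260% and 0.277% at 12 h, against 0.293%, 0.286% and 0.297% at 6 h, a log2 difference of -0.121 (limma adjusted p = 0.0174). Both blocks had been named for their low p at 6 h against 0 h, and the test reuses those 6 h libraries, so a smaller value at 12 h was favoured by that choice. In both the 12 h libraries lay below all 6 h libraries.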

How the results depend on the processing

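With limma, 0 genes were called under other scalings, filters, a pseudocount of 1 and the 6 libraries alone. The count was 1, Zm00001d042506, with a pseudocount of 5 reads, 1 on the square-root scale and 1 with the replicate block, the same gene each time. Leaving out each library gave 0 to 2 genes, the 2 being Zm00001d042506 and Zm00001d000272 without 6 h replicate 1. Deviations of same-numbered libraries correlated between -0.018 and 0.0094 over genes, so the numbers were not taken to pair them, and the replicate block called 56 blocks. The count of blocks was 3 with the median gene, 38 to 59 leaving out each library, and 44 to 73 under the other alternatives that kept blocks of 200 ids. The share of blocks called depended on their width. It was 48 of 520 (9.23%) with blocks of 100 ids and 46 of 107 (43%) with blocks of 500 ids. Over the 6 named blocks, 108 of 114 values kept direction and side of the threshold, and the other 6 missed it with the median gene; without that alternative their limma adjusted p ran up to 0.0386. Leaving out each library, the highest bin of genes ranked on all libraries differed by -1.15 to -0.878 points, position bin 5 by 0.261 to 0.315 and bin 10 by -0.368 to -0.325. Position bin 7 reversed to 0.0035 without the 100 highest genes, to 0.0054 with a mean of at least 10 reads, and ran from -0.029 to 0.024 leaving out each library. Totals of stretches 2, 6 and 9 also reversed, running from -0.021 to 0.036, -0.037 to 0.051 and -0.038 to 0.020. The cause of these changes was not tested. Adjusted p of limma over the alternatives lay between 0.000230 and 0.701 for Zm00001d042506, 0.110 to 0.768 for Zm00001d045296, 0.0714 to 0.792 for Zm00001d016456 and 0.141 to 0.701 for Zm00001d009962. The log2 change of Zm00001d016456 ran from 1.07 to 4.55. Among genes with a mean of at least 20 reads, 0 of 5909 were called and 486 had an unadjusted p under 0.05.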

Other observations

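Log2 changes of single genes resembled those of their neighbours only slightly. The Pearson r between a gene's change at 6 h and that of the next gene of its stretch was 0.039 over 38395 pairs, and 0.018 for genes 20 apart, given as a description across genes, which are not independent.

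A group of 165 genes had the same coverage as another gene in all 9 libraries. Their median coverage at 12 h was 23.4 bases, less than 1 read, and counting each value once left 59 blocks called.

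In the 100 genes of highest mean coverage, 16 had all 6 h libraries below all 0 h libraries (16%) and 5 had all above (5%), where the shares over all genes were 5.26% below and 5.72% above.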
